A study of Mus musculus with 20 samples.

Results

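The genes described here carry the names of initiation and elongation factors of cytoplasmic translation. They were measured as mRNA in microglia of mThy1-α-synuclein mice and wild-type mice at 7 and 10 months of age. A gene was included where its symbol in the expression table began with Eif followed by 1 to 6 or with Eef followed by 1 or 2, and the eIF2 kinases (Eif2ak) were left out. This rule used names and no measured value, though it was chosen with earlier results of these data known. It found 59 of the 24062 genes in the table. Of these, 56 passed the filter on low values in each comparison, and Eif3j1, Eif3j2 and Eif4e1b were listed at 0 in every mouse. Eif3j1 and Eif3j2 are near-identical copies, so reads from either may have been left uncounted. The rule also took in genes with regulatory or other roles, such as Eef2k, Eef1e1, Eif4a3, Eif1ad and the eIF4E binding proteins. All are counted as factors below.

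The mice were males of the B6D2F1/J strain. The transgenic mice (genotype HEM in the labels) carry human wild-type α-synuclein, the protein that aggregates in Parkinson's disease, under the murine Thy-1 promoter, which is active mainly in neurons. The transgene lies on the X chromosome, and the control mice (WT) were littermates without it. There were 6 transgenic and 4 wild-type mice at 7 months and 5 of each genotype at 10 months. Per the methods, each group began with 6 mice, and the mice missing here gave too little RNA to sequence. Each library came from microglia taken with magnetic beads from the brain of 1 mouse, and mice of 1 age were processed together, so age and processing cannot be told apart. Expression is given as the normalised read count, the number of reads on a gene divided by a size factor for that mouse. The libraries held 33404096 to 77806399 reads on genes. Summed over 10 microglial marker genes, the normalised count was between 1678590 and 2202900 in every mouse.

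Translation starts when eIF2 brings the initiator tRNA to the small ribosomal subunit, eIF3 scaffolds that subunit, and the eIF4 group binds the cap of the mRNA and unwinds its leader. In elongation, eEF1A delivers each aminoacyl-tRNA, the eEF1B subunits recharge eEF1A with GTP, and eEF2 moves the ribosome by a codon. Several of these factors, like the ribosomal proteins, are made from TOP mRNAs, which begin with a C followed by an unbroken run of C and T (U in the RNA), and whose translation mTOR and the RNA-binding protein LARP1 control. Factors commonly counted as TOP mRNAs include Eef1a1, Eef1b2, Eef1d, Eef1g, Eef2, Eif3e, Eif3f, Eif3h and Eif4b. These 9 genes are called the TOP list below, which need not be complete.

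Because the results separate the TOP list from the other factors, the DNA around the annotated start of transcription is shown for the 5 genes of that list that had an entry, and for 2 other factors. Each line gives the 30 bases from 10 before the start to 20 from it on, read 5′ to 3′ on the gene's own strand, from RefSeq on build GRCm38.p6. Capitals mark the longest run of C and T that begins with C, where it has at least 5 letters.
Eef1a1 (chr9:78481705-78481734, minus strand): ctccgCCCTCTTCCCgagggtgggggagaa
Eif3f (chr7:108934405-108934434, plus strand): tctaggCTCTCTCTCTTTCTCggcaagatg
Eef2 (chr10:81176621-81176650, plus strand): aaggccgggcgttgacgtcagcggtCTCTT
Eif4b (chr15:102073763-102073792, plus strand): tcccgtcggacgccgcgccaCCCCCTCgcg
Eef1b2 (chr1:63176821-63176850, plus strand): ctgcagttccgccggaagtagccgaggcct
Eif4a1 (chr11:69672404-69672433, minus strand): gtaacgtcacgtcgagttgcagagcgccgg
Eif5a2 (chr3:28781267-28781296, plus strand): gcccgggctgggcgggccggggcggggagc
The run spans the annotated start in Eef1a1, where it has 10 letters, and in Eif3f, where it has 15. In Eef2 and Eif4b it begins 16 and 11 bases on, and the window of Eef1b2 holds none. Neither of the 2 other factors shown holds a run, but factors outside the list that are not shown do. In Eif2s3x a run of 12 letters and in Eif2b5 a run of 14 letters span the annotated start. Neither of these genes passed in the main fit of any comparison below. Eif2s3x did pass in the comparison between ages when 7-month α-synuclein replicate 3 was left out. Eif3k, also outside the list, holds a run of 7 letters that begins 14 bases on, and it was lower at 7 months. The relation of the run to the changes was not tested. Of the 5 TOP list windows 4 held such a run, compared with 29.6% of the 54 windows of the other factors, 61.5% of 78 windows of ribosomal protein genes and 35.8% of all 32851 windows. Annotated starts need not be the starts used in microglia, and a match is only a description of the letters. Entries were found for 45 of the 59 factors.

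The factors covered a wide range of mRNA levels. Per kilobase of exon, Eef1a1, the elongation factor that carries aminoacyl-tRNA, was highest in every group, at 256365 ± 13014 (SD, n = 4) normalised counts per kilobase in 7-month wild-type mice. Eef2, the translocation factor, came next at 26934 ± 1317 per kilobase in the same mice. Eef1b2, a nucleotide exchange subunit, at 12216 ± 1227 per kilobase and Eif1, which guards start codon choice, at 10719 ± 1475 per kilobase followed, and these neighbours did not differ beyond their spread. The lowest detected factor was Eef1a2, the eEF1A isoform of neurons and muscle, at 17.1 ± 9.20 per kilobase.

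**Figure D1:**
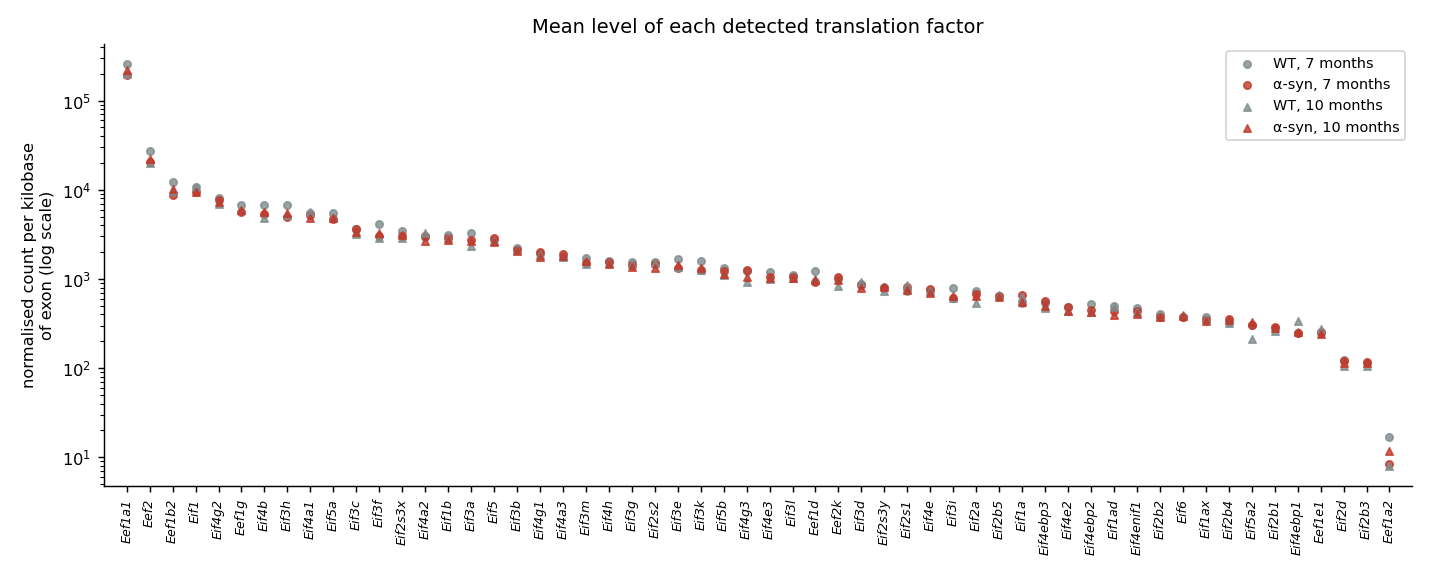
Mean normalised count per kilobase of annotated exon (log scale) for each of the 56 detected factors, ordered by the mean over the 4 groups; grey marks are wild-type and red marks α-synuclein mice, circles 7 and triangles 10 months. Eef1a1 stands above all other factors and Eef1a2 below them in each group.

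The first comparison asks which factors differ between genotypes at 7 months. In α-synuclein mice 10 of the 56 tested factors were lower (adjusted p under 0.05, limma's moderated test with Benjamini-Hochberg adjustment over all genes) and 0 were higher. The edgeR count test on recovered reads called the same 10 genes, DESeq2 called Eef1g as well and neither called any factor higher, and 1 factor had an unadjusted p under 0.05 upwards. The 10 were the elongation factors Eef1a1, Eef1b2, Eef1d and Eef2, the eIF3 subunits Eif3e, Eif3f, Eif3h, Eif3i and Eif3k, and the helicase cofactor Eif4b. Among all 13887 genes tested, 4.93% passed in either direction, 2.7% lower and 2.23% higher. The median log2 fold change was -0.09 over the 56 factors and 0.00 over all genes, and 38 of the 56 lay below 0, as did 49.8% of all genes. An unadjusted p under 0.05 was found for 17 of the 56 factors and 21.3% of all genes. For 9 factors every α-synuclein mouse was below every wild-type mouse, which held for 3.97% of all genes.

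Eef1a1 ranged from 441487 to 510328 normalised counts in the 6 α-synuclein mice, with a median of 481906. The 4 wild-type mice had 674628, 613551, 658574 and 609717. Every wild-type mouse was above every transgenic mouse, and Eef1a1 fell by 0.41 ± 0.07 (SE) on the log2 scale, to 0.753 of the wild-type level (limma adjusted p = 0.00372). As a share of all reads on genes, Eef1a1 alone took 0.869 to 0.963% in α-synuclein mice and 1.20 to 1.29% in wild-type mice.

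Of the eEF1B subunits, which return eEF1A to its GTP form, Eef1b2 and Eef1d fell too. Eef1b2 was 19469 to 23801 (median 22482) normalised counts in α-synuclein mice and 33010, 30441, 33538 and 26735 in wild-type mice. It fell by 0.48 ± 0.08 (SE) on the log2 scale (limma adjusted p = 0.00364), with no overlap. Eef1d, another exchange subunit, was 5558 to 6740 (median 5848) against 7207, 8107, 8715 and 7509, a log2 fold change of -0.39 ± 0.08 (limma adjusted p = 0.00874). Eef1g, the scaffold of the eEF1B complex, was 12294 to 16069 (median 15280) against 17039, 18165, 18325 and 16574. The genotypes did not overlap for Eef1g, but its log2 fold change of -0.28 ± 0.09 did not pass (limma adjusted p = 0.0849).

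Eef2 was 63207 to 72925 (median 67598) normalised counts in α-synuclein mice and 85948, 87814, 95900 and 88456 in wild-type mice. All transgenic mice were below all wild-type mice, and Eef2 fell by 0.39 ± 0.07 (SE) on the log2 scale (limma adjusted p = 0.0037). Its kinase Eef2k, which halts elongation by phosphorylating eEF2, was 7033 to 8349 against 6722 to 7870 and had a log2 fold change of 0.07 ± 0.07 (limma adjusted p = 0.633). The remaining eEF1 genes did not pass either, with Eef1e1, a component of the tRNA synthetase complex, at 693 to 1056 against 757 to 870 counts.

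**Figure D2:**
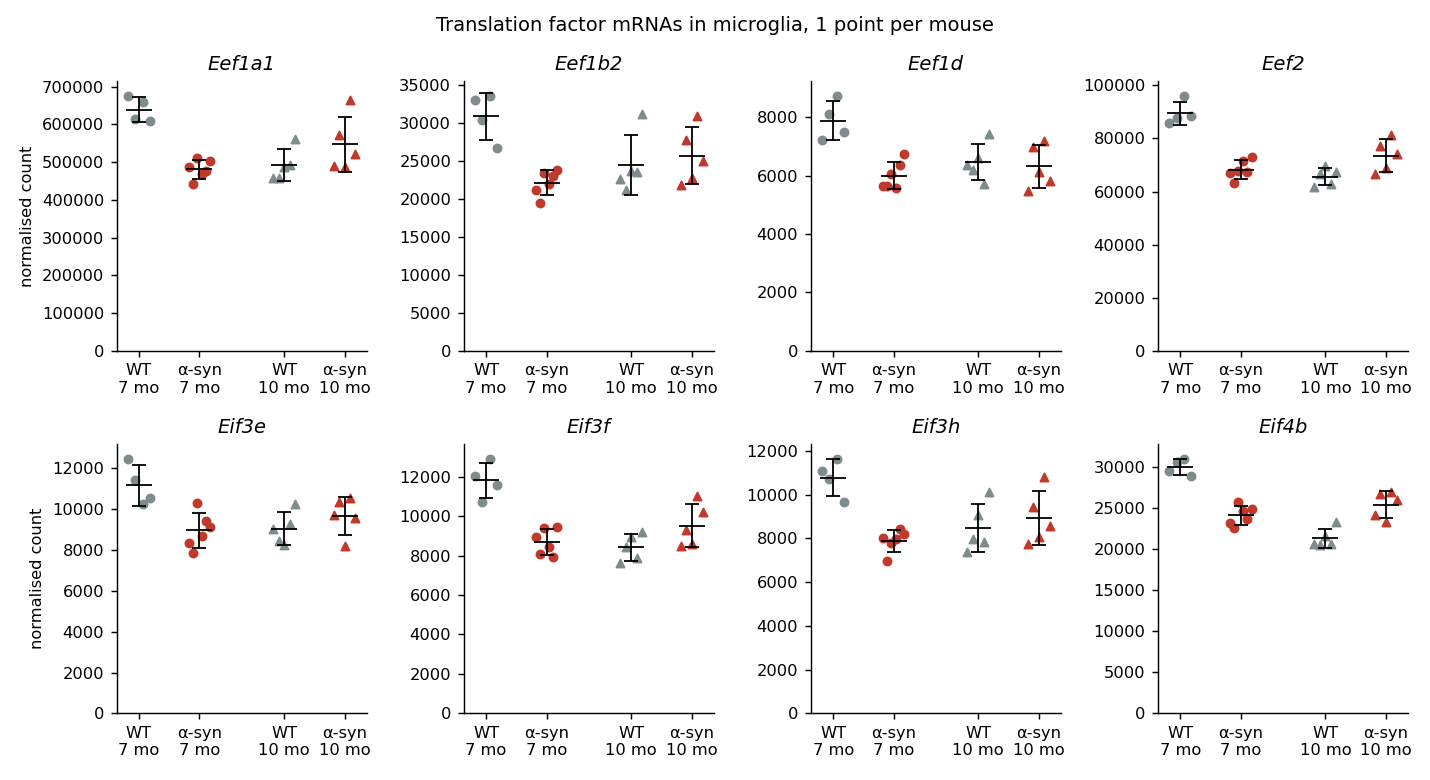
Normalised counts of the 8 TOP list genes that passed the test at 7 months, with 1 point per mouse and black bars for mean ± SD; grey is wild-type, red α-synuclein, and the ages were scaled separately, so only genotypes within an age can be compared. At 7 months the red points lie under the grey ones in every panel but Eif3e, where the highest red and the lowest grey point cross, and at 10 months they overlap in every panel but Eif4b.

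Within eIF3, the complex of initiation factors bound to the small subunit, 5 of 12 tested subunits fell at 7 months and the median log2 fold change was -0.23. Over all genes tested 2.7% were lower. Eif3h was 6957 to 8419 (median 7998) normalised counts in α-synuclein mice and 11099, 10740, 11635 and 9672 in wild-type mice, a log2 fold change of -0.45 ± 0.07 (limma adjusted p = 0.00323). Eif3f was 7905 to 9456 (median 8684) against 12030, 10714, 12892 and 11578, a log2 fold change of -0.44 ± 0.08 (limma adjusted p = 0.00387). For both genes the genotypes were fully separated.

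The other 3 eIF3 calls were closer to the threshold. Eif3k was 3136 to 3720 (median 3310) against 4168, 3874, 5121 and 3965 normalised counts, with no overlap and a log2 fold change of -0.34 ± 0.09 (limma adjusted p = 0.0317). Eif3e was 7862 to 10307 (median 8901) against 12459, 11441, 10263 and 10530, and Eif3i was 1882 to 2688 (median 2215) against 2784, 2604, 3353 and 2903. For each of these, the highest transgenic mouse was above the lowest wild-type mouse, and the log2 fold changes were -0.32 ± 0.08 and -0.37 ± 0.10 (limma adjusted p = 0.0388 and 0.0417). The core subunit Eif3a, 17662 to 27534 against 24819 to 33448 counts, had a log2 fold change of -0.26 ± 0.12 that did not pass, and Eif3b and Eif3c had changes of -0.06 and 0.00. Leaving out 1 mouse ended the Eif3e call in 8 of 10 cases (all but α-synuclein replicates 3 and 5, adjusted p up to 0.153), the Eif3i call in 8 of 10 (all but α-synuclein replicate 3 and wild-type replicate 2, up to 0.144) and the Eif3k call in 4 of 10 (α-synuclein replicates 2 and 3, wild-type replicates 1 and 3, up to 0.101).

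Of the 11 tested cap-binding and helicase factors of the eIF4 group, Eif4b, which stimulates the eIF4A helicase, was the one that passed at 7 months. It was 22646 to 25730 (median 24186) normalised counts in α-synuclein mice and 29580, 30682, 30994 and 28925 in wild-type mice, and fell by 0.32 ± 0.06 (SE) on the log2 scale (limma adjusted p = 0.00904). The helicases Eif4a1 and Eif4a2 had log2 fold changes of -0.06 ± 0.08 and 0.03 ± 0.08. The cap-binding protein Eif4e was 4145 to 5242 against 4192 to 4650 counts, and the scaffold Eif4g1 was 13582 to 15871 against 12841 to 14771. None of the 7 genes of start codon selection and subunit joining, the 6 of eIF2 and other tRNA carriers, the 5 of the exchange factor eIF2B, the 4 eIF4E binding proteins, the 2 eIF5A genes or Eif6 passed by limma, edgeR or DESeq2, and 5 of these 25 had an unadjusted p under 0.05 by limma. By the same test 4.93% of all genes passed and 21.3% had an unadjusted p under 0.05.

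**Figure D3:**
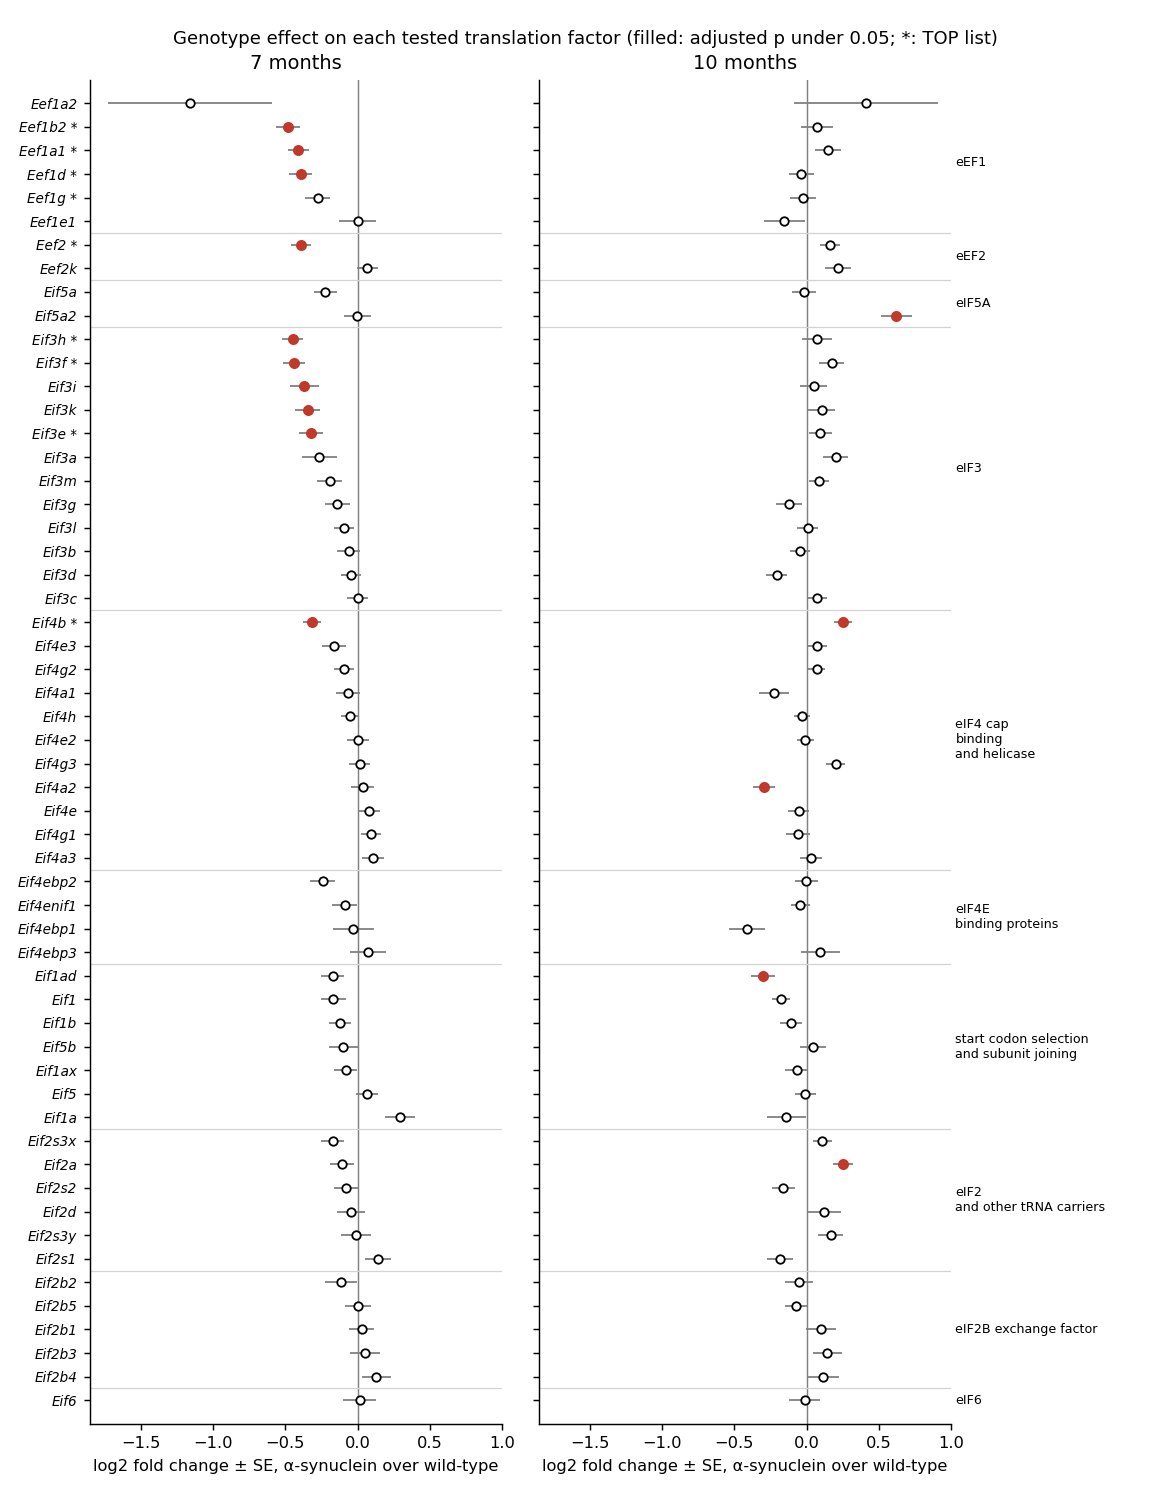
Log2 fold change of α-synuclein over wild-type mice with its standard error for the 56 tested factors, grouped by role, at 7 months (left) and 10 months (right); filled points passed at an adjusted p under 0.05 and stars mark the TOP list. At 7 months the 10 filled points all lie left of 0, and 8 of them carry a star.

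Split by the TOP list, 8 of its 9 genes fell at 7 months and 0 rose, while 2 of the other 47 factors fell. Of all genes tested at that age, 2.7% were lower and 2.23% higher. The list was chosen with earlier results of these data known, so the split describes the values and is no independent test. The median log2 fold change was -0.39 for the TOP list and -0.05 for the others. Cytoplasmic ribosomal protein genes, which are TOP mRNAs as a class, had 69 of 84 tested genes lower and 1 higher, with a median of -0.48. As a value nearly free of the size factor, the mean log2 normalised count of the TOP list minus that of the 47 other factors was taken in each mouse. It was 2.50 to 2.72 (median 2.64) in α-synuclein mice and 2.91 to 2.96 (median 2.94) in wild-type mice, without overlap. All 59 factors together took 1.84 to 2.01% of reads on genes in α-synuclein mice and 2.32 to 2.43% in wild-type mice, and without Eef1a1 0.955 to 1.04% and 1.11 to 1.16%.

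**Figure D4:**
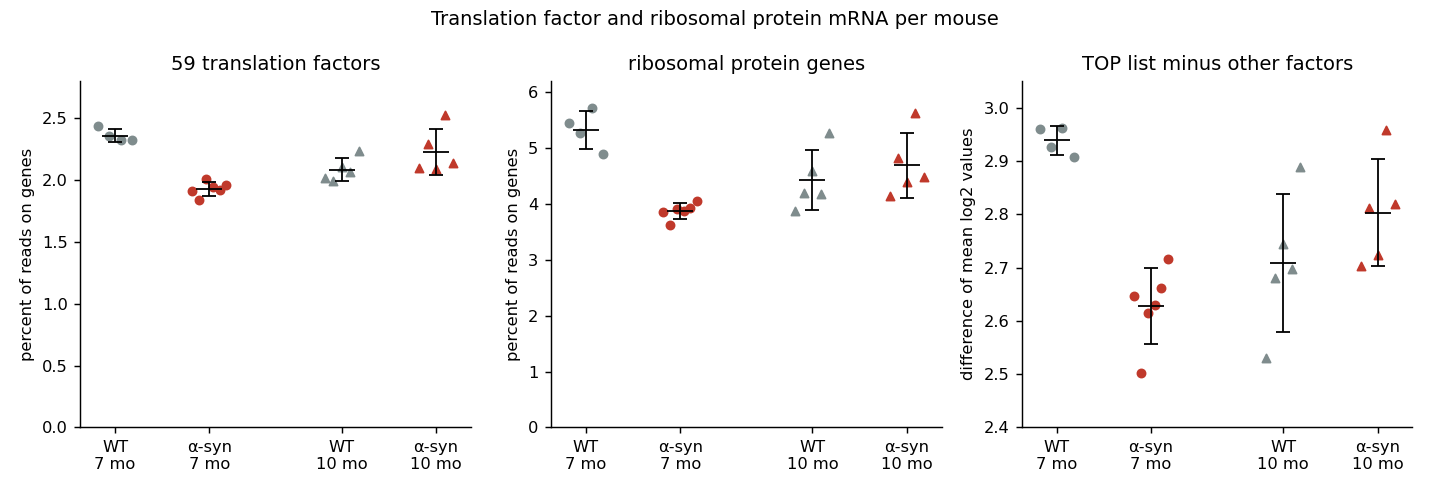
For each mouse, the percent of reads on genes that fell on the 59 factors (left) and on ribosomal protein genes (middle), and the mean log2 normalised count of the TOP list minus that of 47 other factors (right, axis not from 0), with mean ± SD in black. At 7 months the genotypes do not overlap in any panel, and at 10 months they overlap in all 3.

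Markers of other cells moved with the 7-month comparison. The summed normalised count of 10 neuronal markers was 311 to 606 in α-synuclein mice and 661 to 1361 in wild-type mice, that of 8 oligodendrocyte markers 7861 to 10208 and 12776 to 18238, and that of 5 endothelial markers 2470 to 4088 and 4510 to 5385, each without overlap. Among them 5, 3 and 2 genes were lower by the same test and 0 were higher, and of 8 astrocyte markers 3 were lower and 1 was higher. The shares over all genes tested were 2.7% lower and 2.23% higher. No neuronal, oligodendrocyte or endothelial marker was at 0 in every mouse of a group. The isoform Eef1a2, found mainly in neurons and muscle, was 5.08 to 35.7 normalised counts in α-synuclein mice and 21.3 to 63.8 in wild-type mice (log2 fold change -1.16 ± 0.57, limma adjusted p = 0.252). With 1 mouse left out, this value of Eef1a2 ranged from -1.42 (without α-synuclein replicate 2) to -0.84 (without wild-type replicate 3), and its 10-month value, 0.41 ± 0.50, from 0.20 to 0.71 (without α-synuclein replicates 4 and 3). The part of these cells in the lower factor mRNAs was not tested, and in bulk samples fewer cells of a type and less RNA per cell cannot be told apart. Eef1a1 and many ribosomal protein genes have processed pseudogenes, and how reads with several matches were counted is not given in the sources used here.

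At 10 months the second comparison, of 5 against 5 mice, gave another set of factors. Eif5a2, Eif2a and Eif4b were higher and Eif4a2 and Eif1ad lower in α-synuclein mice, 5 of 56 tested factors, beside 7.67% of all 13627 genes tested, 3.88% higher and 3.79% lower. The share of factors called was thus close to that of all genes. For all 5 the genotypes did not overlap, as for 6 of the 56 factors, Eif1 being the other, and 7.27% of all genes. An unadjusted p under 0.05 was found for 12 factors and 23.5% of all genes. The median log2 fold change was 0.02 over the factors and 0.00 over all genes.

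Eif5a2, the less abundant paralog of the hypusine-containing factor eIF5A, which helps ribosomes through difficult peptide bonds, differed most. Its normalised counts were 1820, 1934, 1585, 1370 and 1485 in α-synuclein mice and 1134, 1012, 993, 1247 and 928 in wild-type mice. Every transgenic mouse was above every wild-type mouse, and the log2 fold change was 0.62 ± 0.11, a 1.54-fold higher level (limma adjusted p = 0.00505). It passed in all 10 fits that left out 1 mouse. Its main paralog Eif5a was 10387 to 13348 against 10406 to 12913 counts, with a log2 fold change of -0.02 ± 0.08.

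Eif4b was 24128, 26788, 23278, 26977 and 25941 normalised counts in α-synuclein mice and 20635, 20461, 21633, 20667 and 23269 in wild-type mice. The lowest transgenic mouse, at 23278, was just above the highest wild-type mouse, at 23269, and the log2 fold change was 0.25 ± 0.07 (limma adjusted p = 0.0323), opposite in sign to that at 7 months. Eif2a, which can carry initiator tRNA independently of eIF2, was 3818, 4276, 3837, 4057 and 3608 against 3263, 3028, 3430, 3274 and 3453, a log2 fold change of 0.25 ± 0.07 (limma adjusted p = 0.0344).

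Eif4a2, a paralog of the main mRNA helicase Eif4a1, was 14132, 14939, 14693, 13898 and 13706 normalised counts in α-synuclein mice and 16864, 15450, 16227, 20095 and 19345 in wild-type mice. It fell by 0.30 ± 0.08 (SE) on the log2 scale (limma adjusted p = 0.0325), and the wild-type mice were the more spread. Eif1ad, which carries an eIF1A-like domain, was 1063, 1162, 1113, 1172 and 934 against 1481, 1285, 1245, 1374 and 1321, a log2 fold change of -0.30 ± 0.08 (limma adjusted p = 0.0408). Eif4a1, 17805 to 23449 against 22267 to 31382 counts, had a log2 fold change of -0.22 ± 0.10 that did not pass and was -0.13 without wild-type replicate 1.

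**Figure D5:**
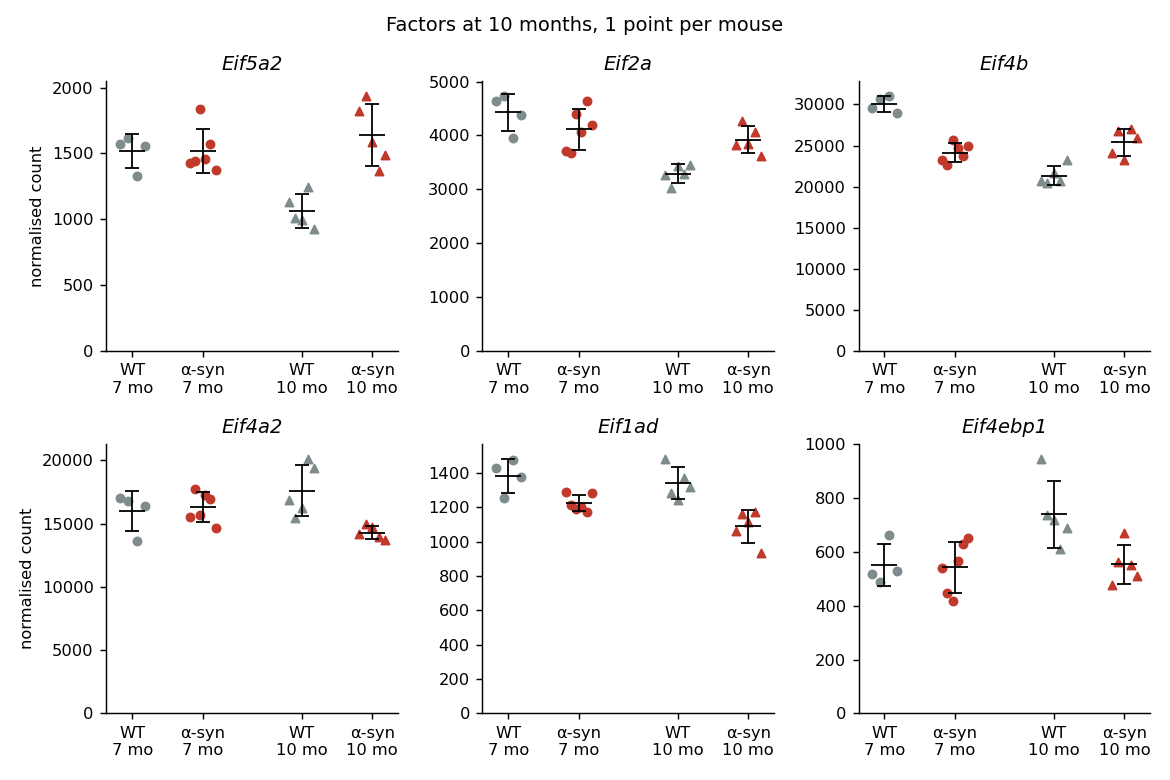
Normalised counts of the 5 factors that passed at 10 months and of Eif4ebp1, which did not, with 1 point per mouse and black bars for mean ± SD; colours and shapes as in the 7-month plot, and only genotypes within an age can be compared. At 10 months the red triangles lie above the grey ones for Eif5a2, Eif2a and Eif4b and below them for Eif4a2 and Eif1ad.

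Apart from Eif5a2, each 10-month call was lost in most of the fits that left out 1 mouse. The number of factors that passed was 1 without wild-type replicate 1, 2 without α-synuclein replicate 1, 2 or 5 or wild-type replicate 2 or 3, 3 without α-synuclein replicate 3 or wild-type replicate 5, and 4 without replicate 4 of either genotype. Eif4b passed in 4, Eif4a2 in 4, Eif2a in 3 and Eif1ad in 1 of the 10 fits without a mouse, with adjusted p-values up to 0.0796, 0.075, 0.0875 and 0.0939, and none changed direction. Over all genes the number of calls went from 1045 to between 489 and 1232 in the same fits, with 578 without wild-type replicate 1. The log2 fold changes of Eif4b were 0.23 to 0.28 and those of Eif2a 0.22 to 0.28 over all alternatives.

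The TOP list as a group did not move at 10 months in the way it did at 7 months. Eif4b was the 1 gene of its 9 that passed, the median log2 fold change was 0.10, and that of the 47 other factors was -0.01. Among all genes tested at 10 months 3.88% were higher and 3.79% lower, and 23.5% had an unadjusted p under 0.05. Eef1a1 was 491095, 571694, 487995, 664098 and 521067 normalised counts in α-synuclein mice and 457476, 458950, 486186, 491699 and 561854 in wild-type mice, with overlap and a log2 fold change of 0.15 ± 0.09 (limma adjusted p = 0.337). Replicate 4 of the α-synuclein mice was the highest, and without it the log2 fold change was 0.08. The TOP list minus the other factors was 2.70 to 2.96 in α-synuclein mice and 2.53 to 2.89 in wild-type mice. Of 84 ribosomal protein genes 0 were lower and 1 was higher by limma (0 and 2 by DESeq2), 1 and 4 had an unadjusted p under 0.05 downwards and upwards, and the median log2 fold change was 0.07.

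Cell markers differed in another way at 10 months. The summed count of 5 border macrophage markers was 17876 to 23070 in α-synuclein mice and 24167 to 34129 in wild-type mice, and that of 4 T or NK cell markers 53 to 134 and 237 to 568, both without overlap, with 3 of 5 and both tested genes lower. The shares over all genes tested were 3.79% lower and 3.88% higher. Of 10 microglial markers 4 were higher (Cx3cr1, Itgam, Sall1 and Siglech) and the median log2 fold change was 0.15, while the neuronal and oligodendrocyte sums overlapped. All 4 monocyte markers lay below 0 (median -1.08, Chil3 and Plac8 lower), as did all 4 neutrophil markers (median -1.18, Retnlg lower) and 9 of 11 immediate-early genes (median -0.26, Fosb lower). All 8 astrocyte markers lay above 0 (median 0.58, Aldh1l1 higher), and the sums of these 4 lists overlapped between genotypes. At 7 months all 4 monocyte, all 4 neutrophil and both tested T or NK cell markers also lay below 0. Their medians were -0.37, -0.55 and -1.12, and 0 passed, beside 2.7% of all genes lower. Border macrophage markers had a 7-month median of 0.02. In the age difference 0 monocyte, neutrophil, T or NK cell or border macrophage markers passed, beside 6.36% of all genes. The part of the 10-month shifts in the values of the 5 factors was not tested.

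The third comparison asks whether the genotype effect differs between the ages. It is the log2 fold change at 10 months less the one at 7 months, from a single model of the 20 mice. It was above 0 for 10 of 56 factors and below 0 for 0 at an adjusted p under 0.05, beside 6.36% of all 14457 genes tested, 3.74% above and 2.62% below 0. By DESeq2 the counts were 11 and 1, the latter being Eif4a2, and by limma 19 factors and 21.9% of all genes had an unadjusted p under 0.05, of which 3 factors were below 0. The 10 were 7 genes of the TOP list, Eif4b (0.57 ± 0.09 on the log2 scale, limma adjusted p = 0.00052), Eef2 (0.55 ± 0.09, 0.00144), Eif3f (0.61 ± 0.11, 0.00321), Eef1a1 (0.56 ± 0.11, 0.00563), Eif3h, Eef1b2 and Eif3e, with Eif5a2 (0.62 ± 0.15, 0.0129), Eif2a and Eif3k. For Eif5a2 the 7-month effect was 0.00 ± 0.09 and for Eif2a it was -0.11 ± 0.08. For Eef1a1, Eef2, Eif3f, Eif3h, Eef1b2, Eif3e and Eif3k the 7-month effect passed and the 10-month one did not, and Eif4b passed at both ages with opposite signs.

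The median difference was 0.55 for the TOP list, 0.02 for the other 47 factors and 0.54 for the 84 ribosomal protein genes, of which 58 were higher and 0 lower. Eef1d and Eif3i, lower at 7 months, had differences of 0.36 ± 0.12 and 0.42 ± 0.14 that did not pass (limma adjusted p = 0.0725 and 0.0752), nor did those of Eif4a2 and Eif1ad. Neuronal markers had 4 of 10 and astrocyte markers 4 of 8 genes higher in the same contrast, beside 3.74% of all genes. The part of these markers was not tested. Without 7-month wild-type replicate 1 the number of factors was 6, and that of all genes called went from 920 to 634. Eef1b2 did not pass without wild-type replicate 1 or 3 of 7 months (adjusted p up to 0.0539), and Eif2a, Eif3e and Eif3k passed in 9, 10 and 9 of the 20 fits without a mouse. In all, 14 factors passed in at least 1 comparison and 42 in none.

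Pairs of paralogs were compared as the log2 ratio of their values within each mouse, which is nearly free of the size factor and was not corrected for gene length. In 18 tests, 9 pairs at each age, 0 passed after Benjamini-Hochberg adjustment of two-sided exact permutation tests. Before adjustment 4 had a p under 0.05, and the smallest adjusted p was 0.0714. The smallest exact p the design allows is 0.00476 at 7 months and 0.00794 at 10 months, so 1 ratio alone could not go below an adjusted 0.0857 or 0.143, and that none passed says little about the ratios. The initiation factor Eif1a over its X-linked paralog Eif1ax was 0.49 to 0.79 in α-synuclein mice and 0.00 to 0.31 in wild-type mice at 7 months, a difference of 0.37 without overlap (exact permutation p = 0.00476, adjusted 0.0714). The scaffold Eif4g1 over Eif4g3 was 0.07 to 0.24 against 0.29 to 0.64 at 10 months, a difference of -0.26 without overlap (exact permutation p = 0.00794, adjusted 0.0714). Eif5a over Eif5a2 at 10 months was 2.51 to 3.28 against 3.06 to 3.74, a difference of -0.64 (exact permutation p = 0.0159, adjusted 0.0952). The X-linked and Y-linked genes of the eIF2 gamma subunit, Eif2s3x and Eif2s3y, had a mean log2 ratio between 1.81 and 1.98 in the 4 groups.

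None of the 4 eIF4E binding proteins passed by limma at either age. Eif4ebp1, the binding protein that holds eIF4E when mTOR is inactive, was 417 to 652 against 490 to 665 normalised counts at 7 months. At 10 months it was 477 to 669 against 613 to 946, a log2 fold change of -0.41 ± 0.12 that did not pass (limma adjusted p = 0.0553). Eif4ebp2 had log2 fold changes of -0.24 ± 0.09 at 7 months and 0.00 ± 0.08 at 10 months. Eif6, which keeps the large ribosomal subunit free, was 893 to 1213 against 865 to 1187 counts at 7 months and 836 to 1254 against 918 to 1227 at 10 months.

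The 42 factors that passed in no comparison had log2 fold changes from -1.16 (Eef1a2) to 0.29 (Eif1a) at 7 months and from -0.41 (Eif4ebp1) to 0.41 (Eef1a2) at 10 months. Eif1a, which works with eIF1 in scanning, was 2475 to 3459 against 1905 to 2493 normalised counts at 7 months (adjusted p = 0.116 by limma). Eif4g2, a scaffold that lacks the eIF4E site, was the most abundant of the eIF4 group per kilobase, at 8181 ± 274 (SD, n = 4) in 7-month wild-type mice and 7683 ± 536 (SD, n = 6) in α-synuclein mice. The cap-binding homologs Eif4e2 and Eif4e3 had log2 fold changes of 0.00 ± 0.08 and -0.16 ± 0.08 at 7 months and -0.01 ± 0.06 and 0.07 ± 0.07 at 10 months. Eif4a3, the helicase of the exon junction complex, had 0.11 ± 0.08 and 0.03 ± 0.08, and Eif2d, a non-canonical tRNA carrier, had -0.04 ± 0.10 and 0.12 ± 0.12. Eif1 did not overlap between genotypes at 10 months, at 19026 to 20793 against 20919 to 24725 counts, but its log2 fold change of -0.18 ± 0.06 did not pass (limma adjusted p = 0.101).

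Genes around these factors were taken from lists by pathway. Gspt1, the release factor eRF3a that ends translation, fell at both ages. At 7 months it was 13033 to 19668 normalised counts in α-synuclein mice and 24350 to 27633 in wild-type mice, a log2 fold change of -0.76 ± 0.10 (limma adjusted p = 0.00123). At 10 months it was 13651 to 15370 against 15446 to 20684, a log2 fold change of -0.35 ± 0.08 (limma adjusted p = 0.0172), and neither age had an overlap. It was the 1 gene of 9 termination, recycling and re-initiation genes that passed at either age. Over all genes tested, 4.93% passed at 7 months and 7.67% at 10 months. Among 5 genes of poly(A)-binding proteins and their partners, Pabpc1, which binds the mRNA tail and is itself made from a TOP mRNA, was higher at 10 months, at 99744 to 112932 against 83595 to 97516 counts (0.23 ± 0.06, limma adjusted p = 0.0415). At 7 months it was 85239 to 131129 against 122700 to 139801, a log2 fold change of -0.31 ± 0.10 that did not pass (adjusted p = 0.0967), and the age difference did (0.55 ± 0.13, 0.0119), as did that of Paip2b, a Pabpc1 inhibitor.

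Among 11 genes of the eIF2 kinases and the integrated stress response, which lowers initiation through eIF2 phosphorylation, none passed by limma at 7 months and 1, Ppp1r15b, passed by DESeq2 and had an unadjusted p under 0.05. At 10 months Ddit3, the stress factor CHOP, was lower, at 516 to 670 against 753 to 1003 normalised counts (log2 fold change -0.50 ± 0.10, limma adjusted p = 0.012). At that age 4 of 10 tested genes had an unadjusted p under 0.05 by limma, each lower, and DESeq2 called Asns and Atf4 lower as well. In the age difference 0 passed by limma and edgeR, 5 had an unadjusted p under 0.05 by limma, and DESeq2 called Ddit3 and Ppp1r15b. Of 10 genes of mTOR and MNK control, 9 enzymes of hypusine and diphthamide, the modified residues of eIF5A and eEF2, and 9 mitochondrial translation factors, 0 passed at either age or in the age difference by limma, edgeR or DESeq2. At an unadjusted p under 0.05 there were 1, 1 and 0 at 7 months, 2, 0 and 1 at 10 months, and 1 of each list in the age difference by limma. By limma an unadjusted p under 0.05 was found for 21.3% of all genes at 7 months, 23.5% at 10 months and 21.9% in the age difference. After adjustment 4.93%, 7.67% and 6.36% of all genes passed.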

How the data were processed

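Poly(A) RNA of microglia from 20 mice was sequenced as paired-end libraries in 1 run. Per the labels and the methods, the authors trimmed reads with Trim Galore 0.6.7, aligned them to mm10 with HISAT2 2.2.1, counted them per gene with featureCounts and scaled the counts with DESeq2 1.44.0; the annotation release, the strand setting and the treatment of multi-mapping reads are not given in the sources used here. The labels name IBA1 beads for the isolation and the methods CD11b beads. The deposited signal values are gene counts divided by 1 size factor per mouse. The factors were recomputed within each age and matched, so levels are compared only within an age. Multiplied by its size factor, 100% of each mouse's values came out whole within 0.01 of a read. The files per mouse repeat the table and were not used.

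Genes were tested where 4 mice (5 at 10 months) reached a value of 10, with limma 3.58.1 in R 4.3.3 on log2(value + 1), with mean-variance trend and robust variance, for 6 against 4 mice at 7 months, 5 against 5 at 10 months, and the difference of both effects over all 20 mice. P-values were adjusted over all genes (Benjamini-Hochberg, cutoff 0.05). Fold changes are on the log2(value + 1) scale. Recovered reads were also tested with edgeR 4.0.16 (695, 1080 and 937 genes called at 7 months, at 10 months and in the difference) and DESeq2 1.42.0 (1158, 1695 and 1325). Other alternatives were the pseudocount, the filter, TMM scaling, a block for the replicate number, each mouse left out, and, chosen after seeing the data, size factors without translation genes. The model fits were also run on simulated counts with known changes, and the outcome is not given here. Paralog ratios were compared by two-sided exact permutation tests. Gene lengths are the union of exons in GENCODE M21, and start windows are from RefSeq. The members, the TOP list and the pathway and marker lists were chosen with earlier results of these data known. Named genes were all factors that passed in a comparison, both genes of each paralog pair, and Eef2, Eef2k, Eif6, Eif4ebp3, Eif4e3, Eif4a3, Eif4g2, Eif3a, Eif2a and Eif2d; those named beyond these, and the pathway genes, were chosen after their values were seen.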

Additional observations from a re-analysis of the deposited data

Results flagged for a closer look

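In groups of 4 to 6 mice, 148 combinations of a named factor and a group were examined for 1 mouse far from the others by Dixon's criterion, and 5 were found, where chance gives about 1 in 20, or 7.4. In 10-month wild-type mice, replicate 1 was far above the others for the initiation factor Eif1a (3845 normalised counts) and the helicase Eif4a1 (31382), and replicate 5 far above for Eef1b2 (31234) and far below for Eif4g3 (9214). In 7-month α-synuclein mice, replicate 3 was far above the others for Eif1a (3459).

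The genotype effect differed between the ages for 10 factors, by the interaction test in limma over 20 mice. The effect at 10 months minus that at 7 months, on the log2 scale, was 0.62 for Eif5a2, 0.61 for Eif3f, 0.57 for Eif4b, 0.56 for Eef1a1, 0.55 for Eef2, 0.55 for Eef1b2, 0.52 for Eif3h, 0.45 for Eif3k, 0.42 for Eif3e and 0.36 for Eif2a.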

How the results depend on the processing

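Under both other pseudocounts, the other filters, TMM scaling, edgeR and size factors without translation genes, the number of factors that passed stayed within 8 to 10 at 7 months, 4 to 5 at 10 months and 9 to 10 in the age difference. DESeq2 gave 11, 8 and 12, the 3 added at 10 months being Eif1, Eif4ebp1 and Eif4g3. Without 1 mouse the counts were 7 to 9, 1 to 4 and 6 to 11, while those over all genes were 280 to 860, 489 to 1232 and 618 to 1097. In the same fits the median log2 fold change over the factors was -0.11 to -0.06 at 7 months and -0.0039 to 0.0432 at 10 months. Of 25 calls of named factors 12 passed under every alternative and 0 changed direction; these 12 are Eef1a1, Eef1b2, Eef1d, Eef2, Eif3f and Eif3h at 7 months, Eif5a2 at 10 months, and Eef1a1, Eef2, Eif3f, Eif3h and Eif4b in the age difference. Of 86 values that did not pass, 24 changed sign under at least 1 alternative, all with an absolute log2 fold change of 0.14 or less. With the replicate number as a block, 6 factors passed at 7 months (without Eif3e, Eif3i, Eif3k and Eif4b), 1 at 10 months (Eif5a2) and 6 in the age difference. Same-numbered mice did not deviate together (correlations -0.134 to 0.0995, with 1 of 9 pairs closest to its own number). These values show no pairing by number, but with so few mice they cannot decide whether there was one. The block moved the 7-month log2 fold change of Eef1a2 from -1.16 to -0.71. No paralog ratio passed under any alternative; the smallest p of these exact tests is too large for 1 ratio alone to pass, so this says nothing about stability. Counting error was widest for Eef1a2, at 5.08 to 63.8 normalised counts per mouse at 7 months, against 261 or more for every other tested factor at both ages.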
